A study of Homo sapiens with 3 samples.

Results

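The genes described here encode the translation initiation factors (symbols starting with EIF, the eIF2 kinases EIF2AK included) and the translation elongation factors and their modifiers (symbols starting with EEF). All protein-coding genes of the platform annotation with such a symbol were taken, whatever their values, which gave 34 genes of the 11915 named protein-coding genes. The symbols themselves were chosen with earlier results of these data known. RefSeq lists 71 protein-coding genes with these symbols, and the other 37 were not analysed here. Among those are all 4 EIF2 subunit genes, all 5 EIF2B genes and all 14 EIF3 genes, so the complexes that could be described were the eIF4 group with 10 of 16 genes, the eIF2 kinases with 4 of 4, the elongation group with 10 of 15 and the remaining initiation factors with 10 of 13.

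Expression was measured in MDA-MB-231, an established human triple-negative breast cancer cell line, after 72 h of treatment. The vehicle control held 1% DMSO, and CFX and Mt-CFX were each used at 10 µM. Ciprofloxacin, named in the title of the series, is an antibiotic of the fluoroquinolone class, and Mt-CFX is known here by its code name only. A DMSO content is stated for the vehicle control only, so an effect of the solvent cannot be told apart from that of a compound. Each of the 3 groups was 1 array, with no count of pooled dishes in the labels, so no value below has a replicate error, no test was made, and whether any difference is larger than the spread between repeats is unknown.

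Values are log2 expression values, on which a difference of 1 is 2-fold. The arrays were scaled to nearly the same distribution, with medians of 3.91 for the control, 3.90 for CFX and 3.88 for Mt-CFX, so that less RNA per cell or fewer cells cannot be seen in them or told apart. Of the defining markers of the line, VIM, CD44, EGFR, AXL and MET lay between 7.31 and 11.0 on all arrays. The progesterone receptor gene PGR was at 2.39 on every array, and the oestrogen receptor gene ESR1 ran from 3.81 to 3.92, near the median of all probe sets. ERBB3 at 4.24, GATA3 at 5.52 and EPCAM at 5.11 to 5.37, also listed as genes expected to be low, lay above that median on every array.

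As background, translation starts when eIF2 brings the initiator tRNA to the small ribosomal subunit. The eIF4 proteins bind the capped end of the mRNA and unwind it. EIF1 guards the choice of the start codon, and EIF5 activates GTP hydrolysis by eIF2 at that step. EIF5B and EIF6 act on the later joining of the large subunit. Elongation factor EEF1A then delivers each aminoacyl-tRNA and EEF2 moves the ribosome forward. Cells under stress slow initiation chiefly by the eIF2 kinases, which phosphorylate eIF2, and by the EIF4EBP proteins, which hold the cap-binding protein EIF4E when mTOR is inactive. These controls act largely on proteins, which the arrays did not measure.

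Differences among the translation factor genes were small, and the clearest lay with Mt-CFX in EIF1B and its paralogue EIF1. EIF1B was 1.95-fold and EIF1 1.47-fold the control with Mt-CFX. Next came EIF5A2, EEF1G and EEF2, higher by 0.39, 0.38 and 0.32 log2. A size of 0.32 log2 was used to count genes, with 1.5-fold as a larger one, and no factor was lower than the control by 0.32 log2 with Mt-CFX. With CFX only EIF5A2, at 1.28-fold, and the cap-binding paralogue EIF4E3, at 0.729 of the control, passed 0.32 log2.

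**Figure D1:**
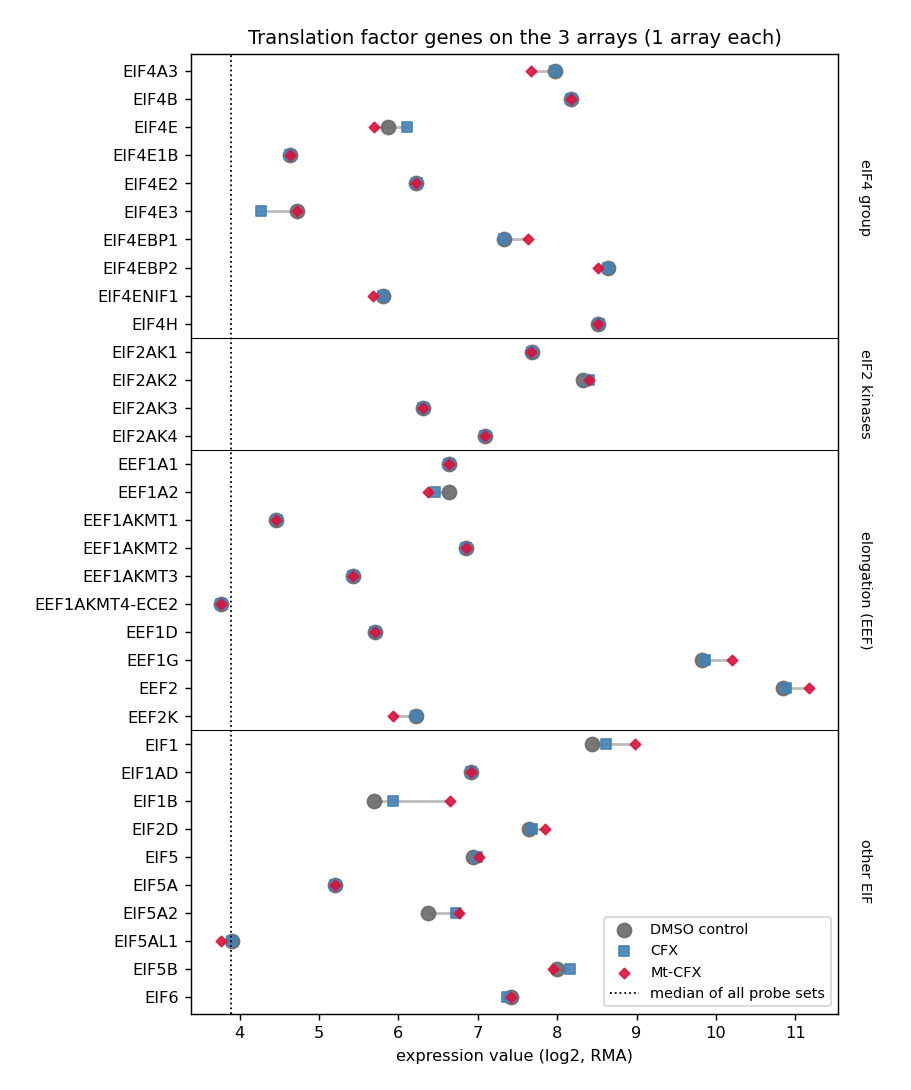
Log2 expression value (x axis) of each of the 34 translation factor genes on the control (grey circle), CFX (blue square) and Mt-CFX (red diamond) arrays, 1 array each, with a grey line over the range. EIF1B runs from 5.69 to 6.65, while 10 genes have their 3 symbols on top of each other; positions of different genes along the axis depend on their probes and are not comparable.

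Many values were exactly equal between arrays, a property of the whole table. Of the 34 genes 10 had 1 value on all 3 arrays, or 29.4%, against 52.7% of all named protein-coding genes and 45.3% of those with at least 1 array at or above a floor of 3.89 log2, the median over all probe sets. In a further 6 genes only the Mt-CFX array differed, or 17.6%, against 12.1% of all genes and 13.8% of those reaching the floor. In 5 only the CFX array differed, or 14.7%, against 7.23% and 7.56%. In 2 only the control differed, or 5.88%, against 8.92% and 9.36%. In 11 all 3 arrays differed, or 32.4%, against 19.1% and 23.9%. What produced the equal values was not tested, and a difference of 0 is reported below as an equal value, not as a lack of response. Of the 34 genes 33 reached 3.89 on at least 1 array, the exception being the readthrough locus EEF1AKMT4-ECE2.

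With CFX over control 15 of 34 genes were higher by any amount, or 44.1%, against a background of 21.3% of all named protein-coding genes and 25.8% of those reaching the floor. Lower were 3 genes, or 8.82%, against 13.9%, and 16 were equal. After re-centring by a lowess curve, which shifts equal values too, 11 were higher and 17 lower, so the split rests on the scaling. At 0.32 log2 1 gene was higher and 1 was lower, where the background was 1.02% and 0.94% of genes, so that each count is a single gene. At 1.5-fold 0 genes were higher or lower, against 0.0839% and 0.134% of genes. The median difference was 0.00 log2 and the mean 0.023, beside a median of 0.00 and a mean of 0.0064 over all genes.

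With Mt-CFX over control 10 of 34 genes were higher, or 29.4% against a background of 20.4%, 9 were lower, or 26.5% against 19.7%, and 15 were equal. At 0.32 log2 5 genes were higher, or 14.7% against a background of 3.94%, and 0 were lower, with a background of 3.59%. At 1.5-fold 1 gene, EIF1B, was higher and 0 were lower, against 1.23% and 0.99% of all genes. The median difference was 0.00 log2 and the mean 0.052, beside 0.00 and 0.0025 over all genes. Members of 1 complex may vary together, and nothing particular to these genes is read from the shares.

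With Mt-CFX set against CFX at the same dose and time 10 genes were higher, 12 were lower and 12 were equal, where the background was 17.7% of genes higher and 20.7% lower. After re-centring 16 were higher and 12 lower. At 0.32 log2 EIF1B, EIF4E3, EIF1 and EEF1G were higher with Mt-CFX, against a background of 3.02%, and EIF4E was lower, against 3.42%. EIF1B also passed 1.5-fold, as did 0.982% of all genes on the higher side, and 0 were lower by that size, against 0.781%. No interval of these differences can be given with 1 array per compound. The comparisons share arrays, so they are not independent of each other.

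**Figure D2:**
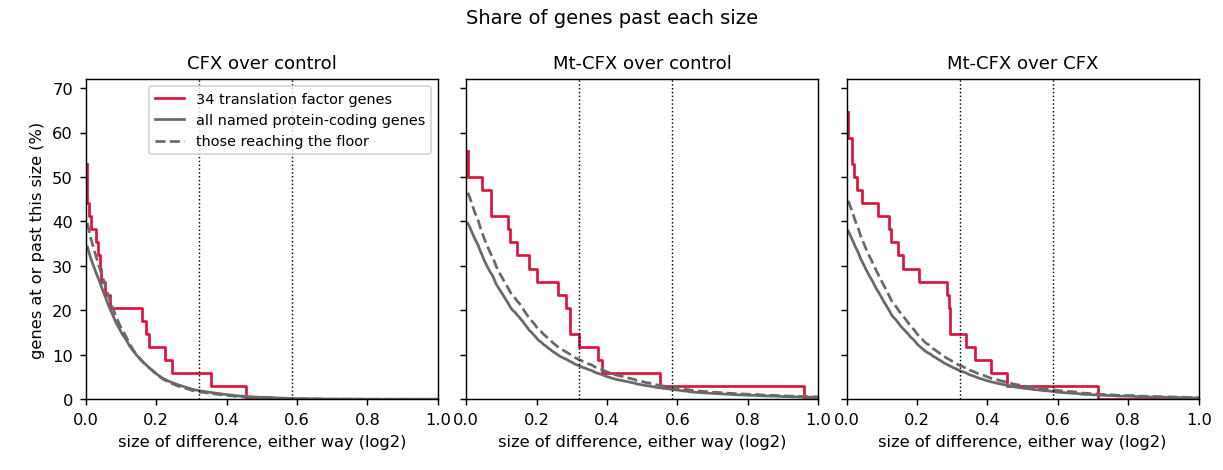
Percent of genes (y axis) whose difference, in either direction, is at or past a given size in log2 (x axis), for the 34 translation factor genes (red steps), all 11915 named protein-coding genes (solid grey) and the 8868 reaching the floor (dashed), with dotted lines at 0.32 log2 and at 1.5-fold. With Mt-CFX over control 14.7% of the translation factor genes reach 0.32 log2 in either direction beside 7.54% of all genes.

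EIF1B and EIF1 had the highest differences with Mt-CFX over control, while EIF5A2 was highest with CFX over control and EIF4E3 lay between EIF1B and EIF1 in the comparison of the compounds. EIF1B, a close paralogue of EIF1, was at 5.69 in the control, 5.94 with CFX and 6.65 with Mt-CFX. Its value was thus highest on the Mt-CFX array, by 0.96 log2 over the control and 0.72 over CFX, and 0.25 higher with CFX than in the control. The CFX value was shared by 45 probe sets of that array, while the control and Mt-CFX values were held by EIF1B alone, so the differences that use CFX carry this limit and that of Mt-CFX over control does not. EIF1, which keeps the scanning ribosome open until the start codon is found, was at 8.44, 8.62 and 8.99 in the same order. It was higher by 0.55 log2 with Mt-CFX and by 0.18 with CFX, and by 0.37 between the compounds.

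The order control, CFX, Mt-CFX thus held for both genes, with the wider gap between the compounds. EIF1 has 7 pseudogenes in RefSeq by symbol and EIF1B has 0, and probe sequences were not used here, so how far the probes of EIF1 read other transcripts is unknown. EIF1B-AS1, the antisense RNA gene that starts beside EIF1B, was at 2.59 on all 3 arrays, well under the floor.

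EIF5, the activator of GTP hydrolysis by eIF2, was at 6.94 in the control, 7.00 with CFX and 7.01 with Mt-CFX. EIF5B, the GTPase that joins the subunits, was at 8.00, 8.16 and 7.95, so that it was 0.16 log2 higher with CFX, 0.05 lower with Mt-CFX and 0.21 lower with Mt-CFX than with CFX. EIF6, which keeps the large subunit from joining early, was at 7.42 in the control and with Mt-CFX and at 7.37 with CFX. EIF5, EIF5B and EIF6 therefore stayed within 0.21 log2 in every comparison. The control value of EIF5 was shared by 15 probe sets of that array. For EIF6 the control and Mt-CFX values were shared by 11 and 17 probe sets of their arrays. EIF2D, which can place initiator tRNA without eIF2 and helps recycle ribosomes, was at 7.64, 7.68 and 7.84, a difference of 0.20 with Mt-CFX. EIF1AD, a protein of small subunit assembly, was at 6.91 on every array.

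Of the 3 genes of the EIF5A family only EIF5A2 differed between arrays with values well above the floor. EIF5A itself, the hypusine-bearing factor that helps ribosomes through difficult peptide bonds, was at 5.20 on all 3 arrays. Its paralogue EIF5A2 was at 6.38 in the control, 6.73 with CFX and 6.76 with Mt-CFX, higher by 0.36 and 0.39 log2, and the compounds differed by 0.03. The Mt-CFX value of EIF5A2 was shared by 20 probe sets of that array, while its control and CFX values were held by EIF5A2 alone. EIF5A2 was the only one of the 34 genes at least 0.32 log2 above the control with both compounds, which share the control array, so a low control value would raise both. EIF5AL1, a gene with a near copy of the EIF5A sequence, was at 3.91 in the control and with CFX and at 3.76 with Mt-CFX, close to the floor. That Mt-CFX value was shared by 584 probe sets of the array, so its difference of −0.15 log2 has little meaning as a size.

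Among the cap-binding proteins EIF4E and EIF4E3 differed between the compounds in opposite directions. EIF4E, which binds the cap of the mRNA, was at 5.88 in the control, 6.10 with CFX and 5.69 with Mt-CFX. It was 0.23 log2 higher with CFX and 0.18 lower with Mt-CFX than in the control, and 0.41 lower with Mt-CFX than with CFX, which is 0.752 of the CFX level. EIF4E3, a less studied cap-binding paralogue, was at 4.72 in the control and with Mt-CFX and at 4.27 with CFX. The CFX array alone was thus low, by 0.46 log2, with a value near the floor of 3.89. EIF4E2, a cap-binding repressor, was at 6.22 in the control, 6.23 with CFX and 6.22 with Mt-CFX. EIF4E1B, a form known from oocytes, was at 4.64 on every array, a value shared by 55 to 77 probe sets of each array.

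The inhibitors of EIF4E went opposite ways with Mt-CFX and were equal with CFX and control. EIF4EBP1, a known target of the stress factor ATF4, was at 7.34 in the control and with CFX and at 7.63 with Mt-CFX. The difference was 0.30 log2 or 1.23-fold, just under the size of 0.32 log2. Its values were shared by 6, 9 and 8 probe sets of the control, CFX and Mt-CFX arrays. EIF4EBP2 was at 8.64 in the control and with CFX and at 8.51 with Mt-CFX, lower by 0.13 log2. EIF4ENIF1, which carries EIF4E into the nucleus and into RNA granules, was at 5.80, 5.80 and 5.68, lower by 0.12, where the control and CFX values were shared by 65 and 53 probe sets of their arrays. EIF4EBP1 was the only gene of the eIF4 group that was higher than the control with Mt-CFX at the probe set used, while 4 were lower and 5 were equal. Of all genes 20.4% were higher and 19.7% lower in that comparison, and no gene of the group passed 0.32 log2 there.

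Of the EIF4A helicase genes only EIF4A3, the helicase of the exon junction complex, was among the 34 genes. It was at 7.97 in the control and with CFX and at 7.67 with Mt-CFX. Its difference of −0.30 log2, or 0.813 of the control, was the lowest of all 34 genes with Mt-CFX. The Mt-CFX value of EIF4A3 was shared by 7 probe sets of that array. EIF4H was at 8.51, 8.52 and 8.51. EIF4B, which like EIF4H helps the initiation helicases EIF4A1 and EIF4A2, was at 8.18 on every array at the probe set used. Its other probe set was at 5.39 in the control, 5.96 with CFX and 5.98 with Mt-CFX, so that the call for EIF4B depends on the probe set. Helicase and scaffold genes such as EIF4A1, EIF4A2, EIF4G1 and EIF4G2 were not analysed here.

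The eIF2 kinases, each of which answers to a different stress, had nearly equal values on the 3 arrays. EIF2AK1 (HRI), which senses haem and relays mitochondrial stress, was at 7.68 in the control, 7.69 with CFX and 7.67 with Mt-CFX. EIF2AK2 (PKR), which senses double-stranded RNA, was at 8.32 in the control and at 8.40 with both compounds, a difference of 0.07 log2. EIF2AK3 (PERK), the kinase of the endoplasmic reticulum, was at 6.31 on all arrays. EIF2AK4 (GCN2), which senses uncharged tRNA, was at 7.09 on all arrays. No kinase differed by more than 0.08 log2 in a comparison, the sign of EIF2AK1 with CFX turned with re-centring, as did that of EIF4H, and kinase activity is not seen in these data.

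In the elongation group 2 genes with high values were higher with Mt-CFX, and the kinase that inhibits one of their products was lower. EEF2, the translocase, was at 10.8 in the control, 10.9 with CFX and 11.2 with Mt-CFX. It was higher by 0.32 log2 with Mt-CFX, just past the size used for counting, and by 0.03 with CFX. EEF1G, a subunit of the exchange factor that recharges EEF1A, was at 9.83, 9.86 and 10.2, higher by 0.38 log2 with Mt-CFX and by 0.04 with CFX. The other probe set of EEF1G was at 7.65 in the control and with CFX and at 7.69 with Mt-CFX, a difference of 0.04, and with the mean of both probe sets the Mt-CFX difference was 0.21, under the size used for counting. After lowess re-centring the small CFX differences of EEF2 and EEF1G turned to −0.024 and −0.0066. Re-centring shifted no gene at all in Mt-CFX over control, so it is no check of the differences there. EEF2K, the kinase that phosphorylates and inhibits EEF2, was at 6.22 in the control and with CFX and at 5.93 with Mt-CFX, a difference of −0.29 log2. The control and CFX values of EEF2K were shared by 17 and 6 probe sets of their arrays.

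The EEF1A paralogues differed from each other. EEF1A1, the general form, was at 6.64 on every array. EEF1A2, the form known from muscle and neurons, was at 6.64 in the control, 6.47 with CFX and 6.37 with Mt-CFX, lower by 0.17 and by 0.26 log2. EEF1A1 has 50 pseudogenes in RefSeq by symbol, more than any other of the 34 genes, and how far its probes read them is unknown. EEF1D, another subunit of the exchange factor, was at 5.71 on every array, a value held by 56 to 68 probe sets of each array.

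The methyltransferases of EEF1A with an EEF1AKMT symbol differed by at most 0.02 log2. EEF1AKMT1 was at 4.46 in the control and with Mt-CFX and at 4.47 with CFX. EEF1AKMT2 was at 6.85 on every array, and EEF1AKMT3 was at 5.42 in the control and 5.43 with both compounds. EEF1AKMT4-ECE2 was at 3.76 throughout, a value held by 560 to 584 probe sets of each array and under the floor.

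**Figure D3:**
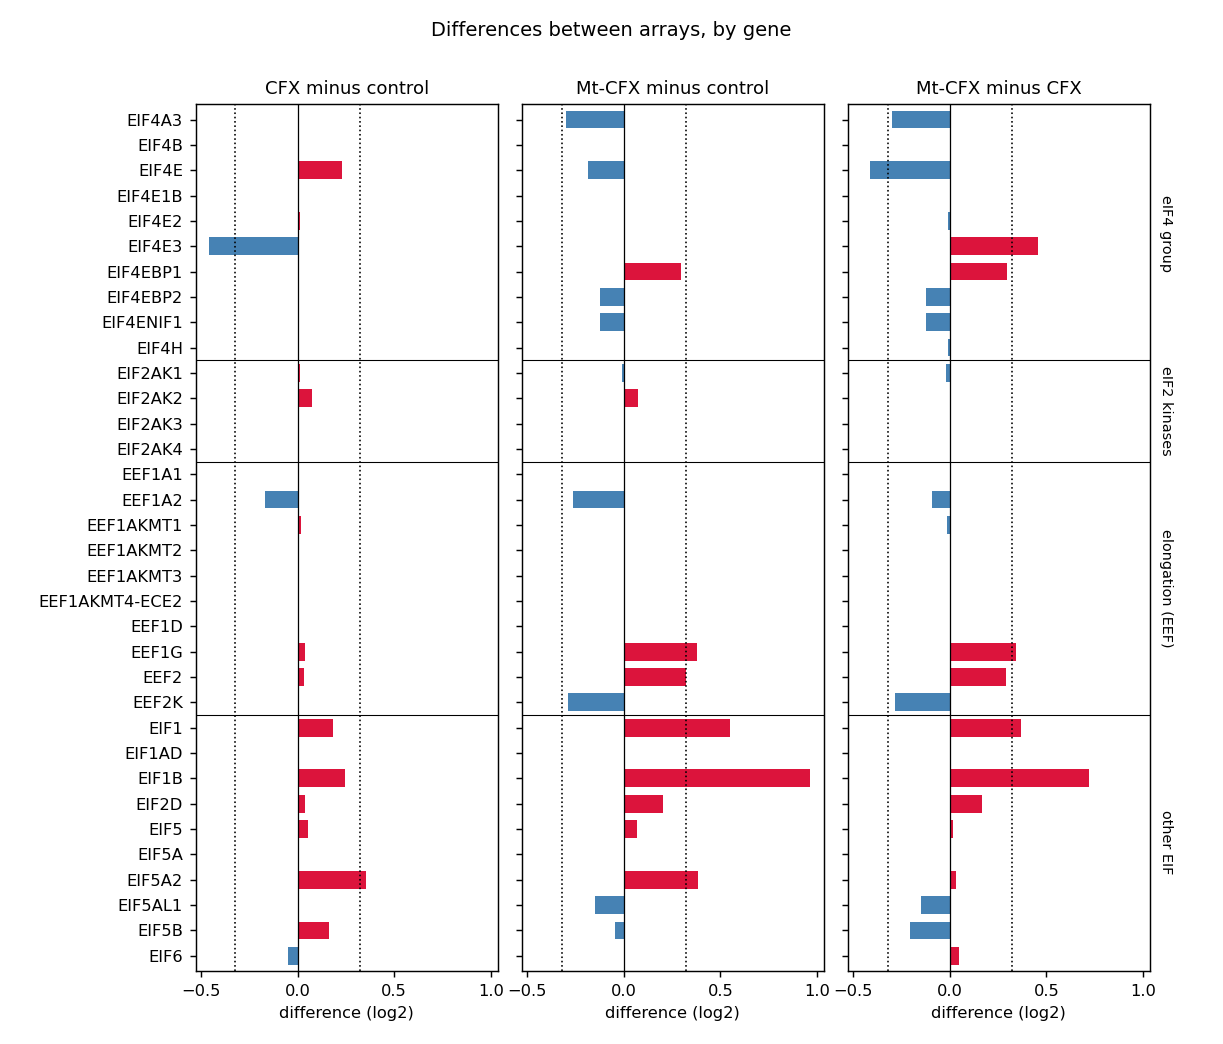
Difference in log2 expression (x axis) of each translation factor gene for CFX minus control, Mt-CFX minus control and Mt-CFX minus CFX, 1 array against 1, with dotted lines at 0.32 log2. EIF1B and EIF1 have the longest bars with Mt-CFX, at 0.96 and 0.55, and no bar passes the dotted line on the lower side there.

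The promoters of the 5 genes at least 0.32 log2 higher with Mt-CFX are shown because ATF4, which binds DNA with partners of its family at elements related to the cyclic AMP response element, was among the stress genes that were higher on the same array. RefSeq promoter sequences of build GRCh38.p14, from 250 bases before to 50 after each annotated start, were at hand for 28 of the 34 genes, and the others were EEF1A2, EEF1AKMT1, EEF1AKMT3, EEF1D, EIF2AK1 and EIF4EBP1. The 200 bases before the start are printed on the strand of the gene. Capitals mark TGACG, the core of the element, on either strand, where it reads CGTCA on the opposite one.
EIF1B, chr3:40309507-40309706, plus strand: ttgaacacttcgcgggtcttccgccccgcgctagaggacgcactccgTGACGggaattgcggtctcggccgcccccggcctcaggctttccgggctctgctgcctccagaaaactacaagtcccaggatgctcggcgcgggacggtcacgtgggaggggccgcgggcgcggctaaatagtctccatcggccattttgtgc
EIF1, chr17:41688685-41688884, plus strand: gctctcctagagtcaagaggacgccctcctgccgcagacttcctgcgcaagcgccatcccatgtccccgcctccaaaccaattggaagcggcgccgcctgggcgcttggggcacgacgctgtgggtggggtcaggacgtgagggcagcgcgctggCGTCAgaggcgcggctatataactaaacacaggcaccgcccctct
EIF5A2, chr3:170908638-170908837, minus strand: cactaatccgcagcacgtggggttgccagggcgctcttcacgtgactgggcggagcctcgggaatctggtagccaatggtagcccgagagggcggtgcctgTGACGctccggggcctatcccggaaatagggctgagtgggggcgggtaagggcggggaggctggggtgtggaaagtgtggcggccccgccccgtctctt
EEF1G, chr11:62573892-62574091, minus strand: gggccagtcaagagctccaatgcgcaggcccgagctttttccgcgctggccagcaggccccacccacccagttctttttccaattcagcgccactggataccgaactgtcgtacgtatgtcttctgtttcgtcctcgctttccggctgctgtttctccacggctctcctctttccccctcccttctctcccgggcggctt
EEF2, chr19:3985464-3985663, minus strand: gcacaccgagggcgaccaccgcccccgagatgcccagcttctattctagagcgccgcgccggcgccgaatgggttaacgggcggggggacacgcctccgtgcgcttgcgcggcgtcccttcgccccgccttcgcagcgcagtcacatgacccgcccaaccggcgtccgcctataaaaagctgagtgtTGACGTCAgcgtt

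The letters TGACG were found once each in EIF1B, EIF1 and EIF5A2, on both strands within 1 palindrome in EEF2, and not in the window of EEF1G. The palindrome of EEF2 is the full element TGACGTCA, which lies 13 to 6 bases before the start and overlaps both matches of the shorter motif. TGACGTCA was in 1.85% of all 35116 promoter windows and in 1 of the 38 windows of translation factor genes. TGACG on either strand was in 24.6% of all windows, and by gene in 34.6% of the protein-coding genes of the table. By gene it was in 4 of the 5 printed genes, in 1 of 3 that were higher with Mt-CFX by less, in 3 of 7 that were lower with Mt-CFX and in 4 of 13 with a value equal to the control. The motif TGATGNAA, the form known from amino acid response elements, was in 3.62% of all windows and in 1 translation factor gene, EIF4E3, whose Mt-CFX value equalled the control. These matches are descriptions of letters in a window, and the genes in each class are few. Whether ATF4 or another factor binds there was not tested.

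Several elongation factor mRNAs are known to begin with a terminal oligopyrimidine tract, a C followed by a run of C and T that puts their translation under mTOR control through LARP1. Of 9 factors listed as such 5 were measured, and with Mt-CFX 2 were higher, EEF1G and EEF2, 0 were lower, and EEF1A1, EEF1D and EIF4B were equal. Of all genes 20.4% were higher by any amount and 3.94% by 0.32 log2, and with the mean of its probe sets EEF1G was higher by 0.21 and EIF4B by 0.29. The 30 bases around the annotated start of 4 of them are printed to show the tract, from 10 before it to 20 after, with the run of pyrimidines that begins at the start in capitals.
EEF2, chr19:3985444-3985473, minus strand: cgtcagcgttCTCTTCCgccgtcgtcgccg
EEF1G, chr11:62573872-62573901, minus strand: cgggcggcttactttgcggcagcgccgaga
EEF1A1, chr6:73521013-73521042, minus strand: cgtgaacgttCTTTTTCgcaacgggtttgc
EIF4B, chr12:53006446-53006475, plus strand: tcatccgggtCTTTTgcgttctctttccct
The run was 7 bases long in EEF2 and EEF1A1 and 5 in EIF4B, while the annotated start of EEF1G is an A. A C and a run of at least 5 pyrimidines began 4.07% of all windows' transcripts and 4 of the 38 windows here, those of EEF2, EEF1A1, EIF4B and EIF2D. Among the genes with the run EEF2 was thus higher by 0.32 log2 with Mt-CFX and EIF2D by 0.20. EEF1A1 and EIF4B were equal on all arrays at the probe set used.

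The listed regulators and partners of these factors included larger differences than the factors did, in the stress output of eIF2 and among the inhibitors of mTORC1. The lists here and below were drawn up with earlier results of these data known. The shares of all genes are therefore given for scale and do not test the lists. Of the 12 genes on the list of eIF2 phosphorylation and stress output 6 were measured. With Mt-CFX 4 of these were higher, 1 was lower and 1 was equal, with a median of 0.52 log2, and 3 were past 1.5-fold on the higher side. Of all genes 20.4% were higher and 19.7% lower in that comparison, and 1.23% were past 1.5-fold higher. ATF4, whose mRNA is translated when eIF2 is phosphorylated, was at 8.12 in the control, 8.36 with CFX and 8.95 with Mt-CFX. DDIT3 was at 3.06, 3.06 and 4.75, starting below the floor, and TRIB3 was at 5.76, 5.86 and 7.73. GCN1, the partner that activates the kinase GCN2, was at 8.15, 8.10 and 7.82, so that it was 0.33 log2 lower with Mt-CFX. IMPACT, which competes for GCN1, was at 6.35, 6.35 and 6.56, higher by 0.20. With CFX 2 of the 6 were higher and 2 were lower, beside 21.3% and 13.9% of all genes. None of the 6 passed 0.32 log2 with CFX, where 1.02% of all genes did so on the higher side and 0.94% on the lower.

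Of 17 genes on the list of mTORC1 and cap-binding control 12 were measured, with a median of 0.066 log2 for Mt-CFX over control. In that comparison 7 genes had higher values, against 20.4% of all genes, 5 had equal ones, and 0 had lower ones, against 19.7%. DDIT4 was at 6.79 in the control, 7.10 with CFX and 9.37 with Mt-CFX, and SESN2 was at 6.32, 6.15 and 7.97, both inhibitors of the pathway. MKNK2, a kinase that phosphorylates EIF4E, was at 6.99, 6.69 and 7.47. It was thus 0.30 log2 lower with CFX and 0.48 higher with Mt-CFX, a difference of 0.78 or 1.72-fold between the compounds, while EIF4E itself was 0.41 lower with Mt-CFX than with CFX. MKNK1 was at 5.34 in the control and with Mt-CFX and at 5.20 with CFX. DEPTOR, an inhibitory subunit of mTOR complexes, was at 3.70, 3.87 and 4.14, mostly below the floor. MTOR, AKT1S1, TSC1 and TSC2 had equal values on all arrays.

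**Figure D4:**
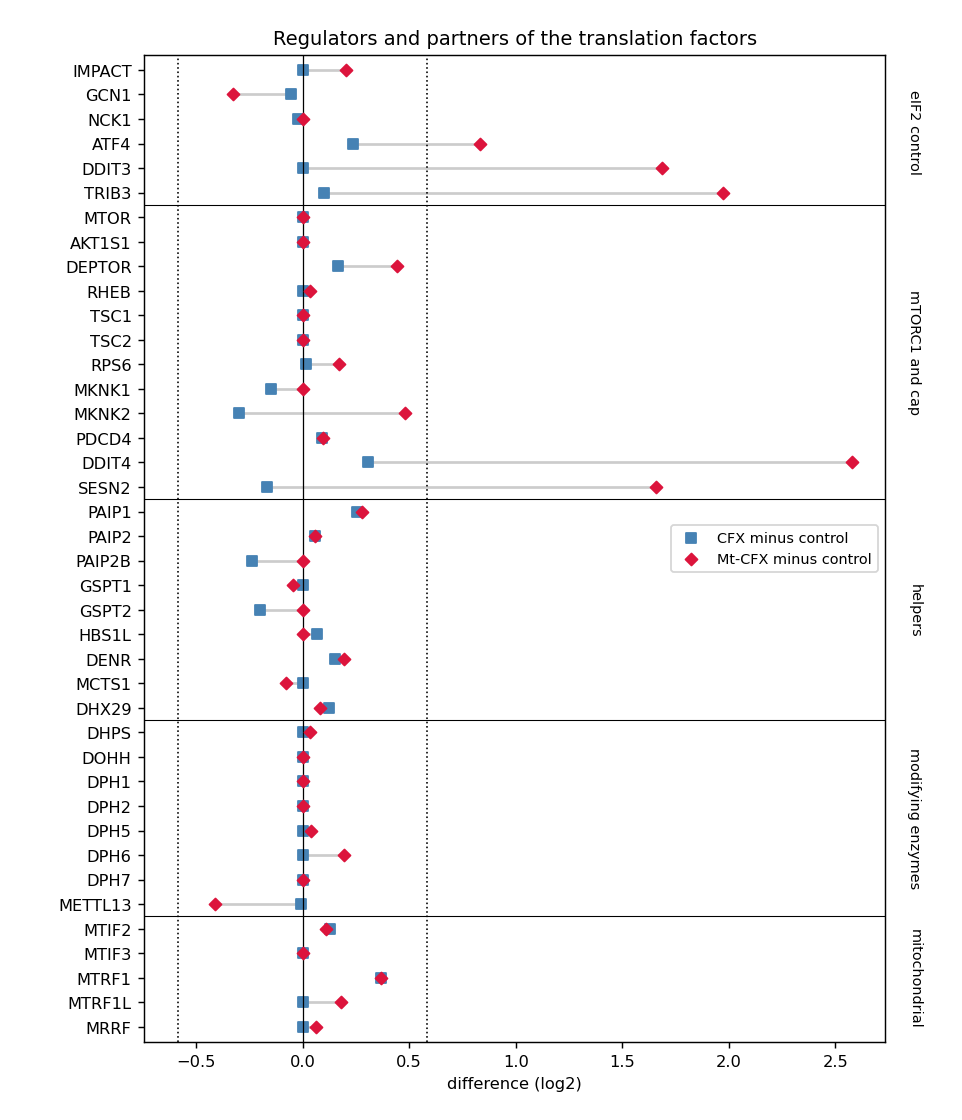
Difference from the control in log2 (x axis) for CFX (blue squares) and Mt-CFX (red diamonds), 1 array each, for the measured genes of 5 lists of regulators and partners, with dotted lines at 1.5-fold. DDIT4, TRIB3, DDIT3, SESN2 and ATF4 lie past the right line with Mt-CFX, and MKNK2 lies on opposite sides of 0 with the compounds.

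The remaining lists stayed within 1.5-fold in all comparisons. Over all genes, 20.4% were higher and 19.7% lower with Mt-CFX than in the control. Of 16 poly(A) binding, termination and recycling helpers 9 were measured, with 4 higher, 2 lower and 3 equal with Mt-CFX. PAIP1, which stimulates translation through poly(A) binding protein, was higher by 0.25 log2 with CFX and by 0.28 with Mt-CFX. DENR, which with MCTS1 recycles ribosomes as EIF2D does, was at 8.02, 8.17 and 8.21. Of 10 enzymes that modify the factors 8 were measured, with 3 higher, 1 lower and 4 equal with Mt-CFX. The lower gene was METTL13, which methylates EEF1A, at 7.36 in the control, 7.35 with CFX and 6.94 with Mt-CFX, a difference of −0.41 log2. DHPS, the enzyme of the first step to hypusine on EIF5A, differed by 0.03 with Mt-CFX, and DOHH, that of the second, was equal on all arrays. Of 9 mitochondrial translation factors 5 were measured, with 4 higher, 0 lower and 1 equal with Mt-CFX. The highest was MTRF1, a mitochondrial release factor, at 5.98 in the control and 6.35 with both compounds.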

How the data were processed

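Total RNA was labelled with GeneChip kits for whole transcripts, as the labels' protocols state. The deposited values are log2 expression values per probe set, which the authors made by RMA using the Expression Console of Affymetrix, per the submitters' processing notes; version, build and annotation release are not given in the sources used here. Of 53617 probe sets 16098 had a gene symbol in the platform annotation provided, and those with 1 protein-coding gene stood for 11915 genes. Each gene was read at the probe set with the highest mean of the 3 arrays; 2 of the 34 genes, EIF4B and EEF1G, had a further one. No floor was set. Differences of log2 values were counted by direction and at 1.25-fold (0.32 log2) and 1.5-fold beside the same over all genes.

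Genes named in the text were all members past 1.25-fold, the 5 highest and lowest of each comparison, preset members whatever their values, and listed partners past 1.5-fold; other genes named with values were chosen after these were seen. The members and lists were chosen with earlier results of these data known. Alternatives were a floor at 3.89 log2 on the highest array or on the mean, averaging the probe sets of a gene, lowess re-centring with a span of 0.3, a 2-fold size, a minimum of 0.1 log2, and means in place of medians. The counting was tested on simulated data. The number of arrays limits the precision. Computation used Python 3.11.15, numpy 2.4.6, pandas 2.3.3, statsmodels 0.14.6 and matplotlib 3.10.9.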

Additional observations from a re-analysis of the deposited data

Results flagged for a closer look

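The other probe set of EIF4B, which the choice of 1 probe set per gene left out, was above its control value by 0.57 log2 with CFX and by 0.59 with Mt-CFX, while the probe set used had equal values on all arrays. It was at 5.39 in the control, 5.96 with CFX and 5.98 with Mt-CFX. It was the only probe set with an EIF or EEF symbol outside the comparisons that was at least 0.32 log2 above the control.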

How the results depend on the processing

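A moved value is one that changed by more than 0.1 log2, or a count that changed by more than 1.5 times. For all 34 genes together 104 of 114 recomputed counts and medians did not move, among them all of those with either floor and with the mean of probe sets. The floors kept 33 and 32 of the 34 genes, and averaging touched only EIF4B and EEF1G, so these results could hardly move. With the mean of probe sets the genes at least 0.32 log2 higher still fell from 5 to 4 with Mt-CFX over control. Between the compounds they fell from 4 to 3. Lowess re-centring shifted members by up to 0.056 log2 with CFX over control, which turned equal values into small differences: 17 genes were then lower and 6 equal with CFX, and between the compounds 16 were higher and 6 equal. It shifted no gene in Mt-CFX over control, so it could not alter a result there and is no check of that comparison. With a minimum of 0.1 log2, 5 genes were higher and 27 equal with CFX, and between the compounds 7 were lower and 20 equal. At 2-fold, 0 genes were higher with Mt-CFX over control or over CFX. By complex 39 of 336 counts and medians moved. Re-centring turned the CFX-over-control split from 3 higher and 1 lower to 2 and 6 in the eIF4 group, from 2 and 0 to 1 and 3 in the eIF2 kinases, whose median turned from just above to just below 0, and from 4 and 1 to 2 and 6 in the elongation group. Of 399 values of single genes 4 moved, all with the mean of probe sets. EEF1G fell to 0.21 with Mt-CFX over control and 0.19 between the compounds, and EIF4B was at 0.28 with CFX and 0.29 with Mt-CFX. Most of the 399 could not move, so their number is no measure of stability. A floor leaves the value of a kept gene as it is, and re-centring shifted no member by more than 0.056 log2. Only EIF4B and EEF1G had a further probe set to average. No paired analysis was possible because each group is 1 array. Signal near the floor limits EIF4E3, EIF5AL1 and DDIT3.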

Other observations

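Among genes with such symbols that do not encode protein, EIF3J-DT, a long non-coding RNA gene divergent from EIF3J, was at 5.33 in the control and with CFX and at 5.55 with Mt-CFX, a difference of 0.21 log2. The transcribed pseudogene EEF1DP3 was at 4.50 on all 3 arrays.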
